A study of Saccharomyces cerevisiae with 5 samples.

Results

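The region described is the 5′ part of 25S rRNA, nucleotides 1 to 1698 of its 3396 nt. It covers nt 3252 to 4949 of the 35S precursor gene. It spans chromosome XII from 462621 to 464318 in the coordinates of the files and is transcribed toward the lower coordinates. The bounds of 25S in the files, 460923 and 464318, equal those of RDN25-2 in the RefSeq table of the R64 assembly. All 1698 nucleotides were members, out of 9137 in the rDNA repeat that the files cover and 6858 in the 35S gene. No measured value was used to choose them. Positions below are numbered from 1 at the 5′ end of 25S.

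RNA polymerase I makes the 35S precursor, from which 18S, 5.8S and 25S rRNA are cut, and 25S is the large RNA of the 60S ribosomal subunit. Native elongating transcript sequencing (NET-seq) maps the 3′ ends of RNA that comes down with the polymerase, and an end held in the active site marks the nucleotide added last. The polymerase does not move evenly. It dwells at some nucleotides, and the trigger loop of its largest subunit, a mobile element that closes over the incoming nucleotide, takes part in each addition. Where the newest base pairs of the RNA-DNA hybrid are weak, a polymerase may slide back. The part of 25S studied here is folded into ribosomal domains and bound by early assembly factors while transcription of the rest of the gene goes on.

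Samples were 3 libraries of budding yeast labelled WT and 2 labelled rpa190-F1205H, in which the trigger loop of Rpa190 is altered. Rpa190 is the largest subunit of RNA polymerase I and holds its catalytic site. All strains carried Rpa135, the second-largest subunit, with a C-terminal HA and histidine tag, through which the complexes were precipitated, and all were grown in rich medium (YEPD). The labels do not say whether the libraries of a genotype came from separate cultures, so p-values measure only the spread between these libraries, which may be technical. The mutant's titles and its genotype label spell the substitution differently, and inside both mutant files the sample column reads WT, so the genotype rests on the sample labels. The gene RPA190 lies outside the files, and no value checks the label.

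The region held 98763, 85057 and 91942 sense 3′ ends in WT libraries 1, 2 and 3, and 461074 and 76945 in mutant libraries 1 and 2. A nucleotide held a median of 37, 32 and 33 counts in WT against 189.5 and 34 in the mutant. Where a position has a count of 0, its share of the region can be up to 0.00304%, 0.00353% and 0.00326% in WT libraries 1 to 3 and 6.51e-04% and 0.00390% in those of the mutant (3 counts over the region total, counting error only). Differences within a genotype exceeded counting noise. The chi-square per degree of freedom was 1.31 to 1.92 for pairs of WT libraries and 4.60 for the pair from the mutant, and each was counted as its own sample. Because 25S is also a finished rRNA, ends of finished or broken 25S and ends of growing transcripts cannot be told apart in these counts.

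The sequences below show where the ends were most frequent in each genotype. They are the surroundings of the 5 positions with the highest mean share of the region's counts in each genotype, read from the base column of the deposited files, 5′ to 3′ on the transcribed strand (chromosome XII, minus). The capital marks the nucleotide at which the RNA 3′ ends lay.
WT nt 1248, chrXII:463063-463086: gguggccauggaaguCggaauccg
WT and mutant nt 1098, chrXII:463213-463236: gaacguggacauuugAaugaagag
WT nt 1302, chrXII:463009-463032: augaacuagcccugaAaauggaug
WT nt 1238, chrXII:463073-463096: acagccggacgguggCcauggaag
WT nt 1679, chrXII:462632-462655: gcgagcccugggaggAguuaucuu
Mutant nt 240, chrXII:464071-464094: ccguguggcgaggagUgcgguucu
Mutant nt 594, chrXII:463717-463740: gcugggacugaggacUgcgacgua
Mutant nt 1239, chrXII:463072-463095: cagccggacgguggcCauggaagu
Mutant nt 1181, chrXII:463130-463153: guuaaggugccggaaUacacgcuc

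Along these 1698 nucleotides the 5 highest positions of each genotype were mostly different nucleotides. Of the WT high points 3 ended in A and 2 in C, and of the mutant high points 3 ended in U, 1 in C and 1 in A. Only nt 1098, an A, was among the 5 highest in both, but the cut at 5 divides near values. The mean share at nt 1248 was 0.318% in the mutant, beside 0.344% at nt 1181, the fifth highest there. At nt 1239, among the 5 highest of the mutant only, the mean was 0.378% in the mutant and 0.327% in WT. At nt 1248 the share of the region's counts was 0.690%, 0.803% and 0.604% in the WT libraries against 0.330% and 0.305% in the mutant libraries. At nt 1302, which lies within a short stretch of A, it was 0.574%, 0.544% and 0.532% in WT against 0.104% and 0.143% in the mutant. At nt 1181, a U, it was 0.0719%, 0.0494% and 0.0511% in WT against 0.328% and 0.360% in the mutant. Nt 1248, nt 1302 and nt 1181 each kept the libraries of the genotypes apart. They were picked as high in 1 genotype, so this describes the same values and is no separate support. Such separation was common. Of 1635 tested positions of the region, 589 called higher and 490 called lower in the mutant had it, and 2079 and 1853 of 5842 over the gene.

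Across the nucleotides of the region, Spearman's rho was 0.958 to 0.969 between WT libraries, 0.920 between the mutant libraries and 0.501 to 0.570 across the genotypes. These values run across positions, which are not replicates and share the sequence and the library. With the mutant profile moved along the WT profile, rho between the mean profiles was 0.552 with no shift. It was 0.319 when mutant positions lay 2 nt upstream of WT positions, 0.129 at 1 nt upstream and 0.193 at 1 nt downstream.

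**Figure D1:**
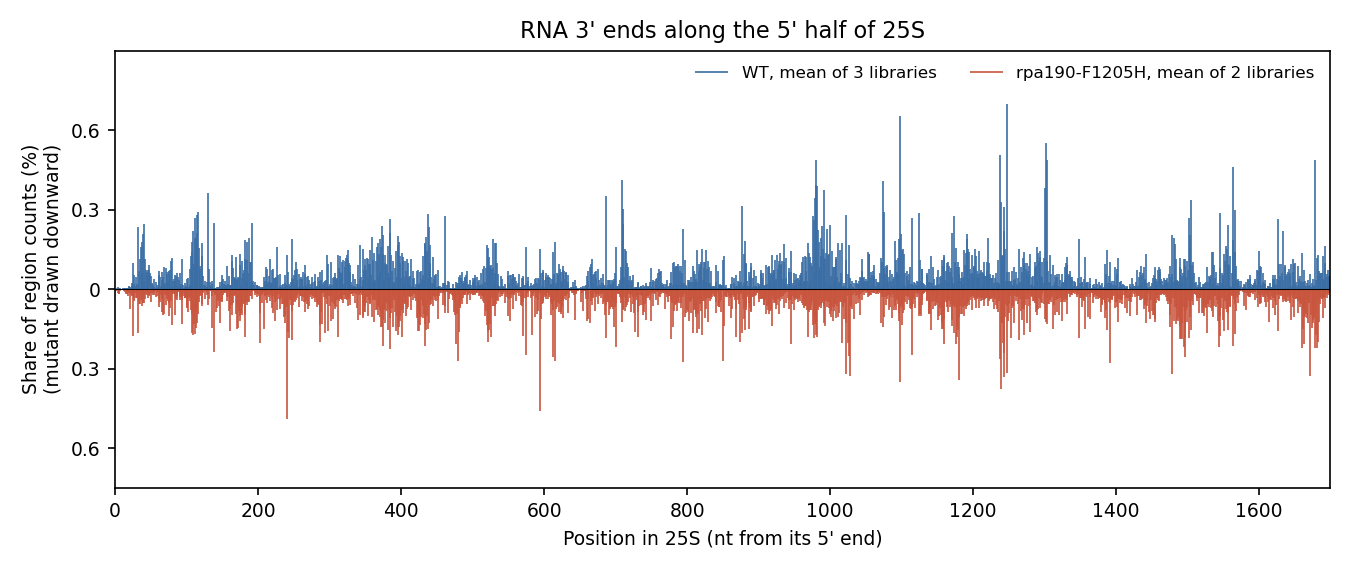
Mean share of the region's RNA 3′ ends at each nucleotide of the 5′ part of 25S (x axis, nt from the 25S 5′ end), with the mean of 3 WT libraries drawn upward and the mean of 2 rpa190-F1205H libraries drawn downward (y axis, percent of the region's counts). The WT profile peaks at nt 1248 (0.699%) and nt 1098 (0.652%), and the mutant profile at nt 240 (0.489%) and nt 594 (0.459%).

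G was the base whose share differed most. It was the last base of 8.80%, 8.94% and 8.82% of the region's ends in the WT libraries and of 25.003% and 23.3% in the mutant libraries, while 29.3% of the nucleotides of the region are G. The share was thus 8.85% ± 0.0736 (SD, n = 3) in WT and 24.2% ± 1.2005 (SD, n = 2) in the mutant, 2.73 times as much. A was the last base of 37.8%, 39.5% and 40.2% of the ends in WT and of 25.1% and 30.4% in the mutant, and it makes up 27.4% of the nucleotides. C ended 21.1% ± 0.493 in WT and 18.6% ± 0.815 in the mutant. For U the shares overlapped, with 29.9% to 31.8% in WT against 28.3% and 30.7% in the mutant. The mutant libraries differed from each other by more than the WT libraries did at A, C, G and U. The exact permutation p was 0.2 at A, C and G, the smallest that 3 libraries against 2 can give (two-sided, 10 splits), and 0.4 at U. Adjusted by Benjamini-Hochberg over the 4 bases these exact permutation p-values were 0.267 and 0.4.

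**Figure D2:**
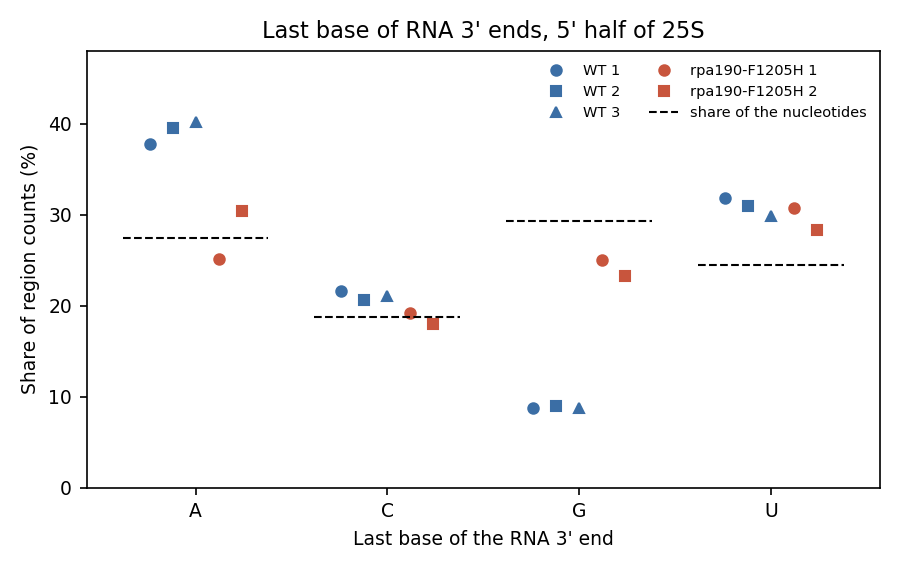
Share of the region's RNA 3′ ends (y axis, percent) by their last base (x axis), with a point for each of the 3 WT and 2 rpa190-F1205H libraries and a dashed line at the share of the region's nucleotides that are that base. At G the WT points lie between 8.80% and 8.94% and the mutant points at 25.003% and 23.3%.

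The base after the 3′ end, which the polymerase would add next, differed as well. It was G for 33.5% ± 0.514 of the ends in WT and 38.7% ± 2.94 in the mutant, and U for 19.3% ± 0.387 and 14.6% ± 0.613 (exact permutation p = 0.2 for each, 0.4 after adjustment over the 4 bases). The mutant libraries were above all WT libraries at next base G (by 5.27 points on average, 3.19 without mutant library 1) and below all of them at next base U. The values overlapped for next base A and next base C.

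Taken as pairs of last and next base, all 4 pairs that begin with G were higher in both mutant libraries than in any WT library. G followed by G took 2.75% ± 0.0899 of the ends in WT and 9.17% ± 0.823 in the mutant, 3.33 times as much. G followed by C took 1.204% ± 0.0225 and 3.47% ± 0.0449, G followed by A 2.94% ± 0.0884 and 7.23% ± 0.0652, and G followed by U 1.96% ± 0.0532 and 4.28% ± 0.268. In the other direction, C followed by U took 4.16% ± 0.0859 in WT and 1.96% ± 0.107 in the mutant, and A followed by U 7.72% ± 0.230 and 4.68% ± 0.486. A followed by A, the most frequent pair in WT, took 15.7% ± 0.543 and 11.4% ± 1.90. U followed by G, the most frequent pair in mutant library 1 but second to A followed by A in mutant library 2 (12.3% against 12.7%), overlapped between the genotypes (12.3% to 13.3% in WT, 14.6% and 12.3% in the mutant) and covers 7.83% of the nucleotides of the region. Of the 16 pairs 12 kept the libraries of the genotypes apart, with an exact permutation p of 0.2 (0.267 after adjustment over the 16 pairs). The exceptions were C followed by G and U followed by A, C or G.

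**Figure D3:**
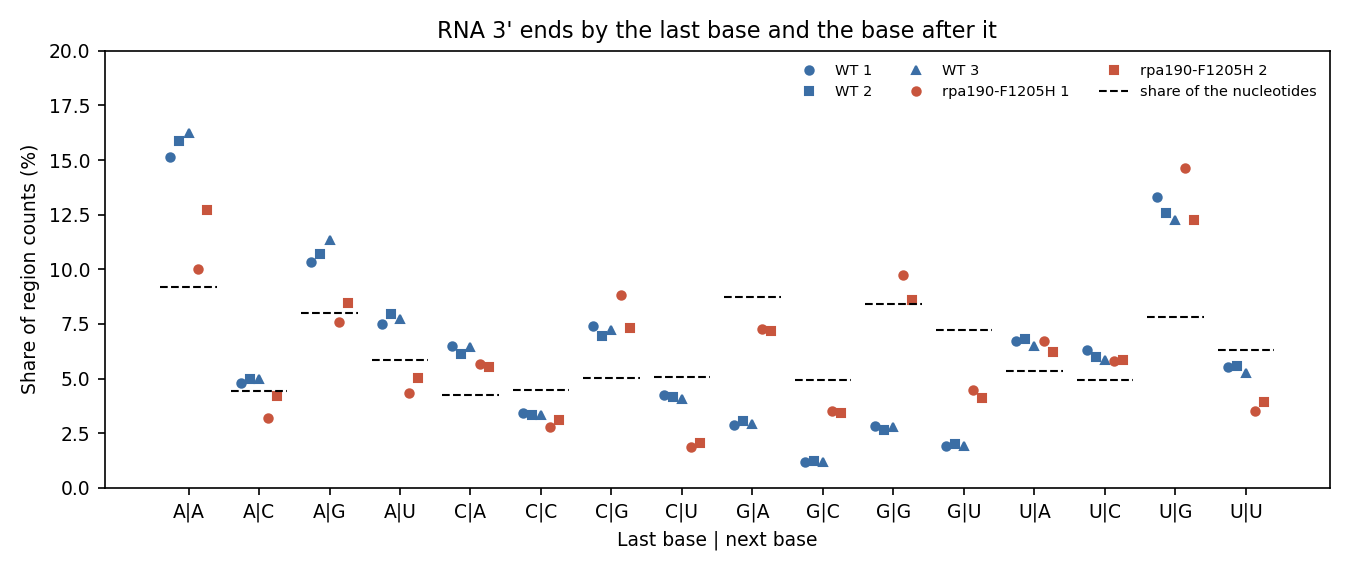
Share of the region's RNA 3′ ends (y axis, percent) by the last base and the base after it (x axis, last base | next base), with a point for each library and a dashed line at the share of the region's nucleotides with that pair. The 4 pairs that begin with G lie at 1.18% to 3.05% in the WT libraries and at 3.44% to 9.75% in the mutant libraries.

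The sequence upstream of the end, including but not limited to the stretch that spans the RNA-DNA hybrid, held more G in the mutant, and mostly less C. Over the 9 nt that end at the 3′ end, G and C together made up 45.1%, 44.5% and 44.8% in the WT libraries against 49.9% and 49.1% in the mutant libraries, weighted by counts, beside 48.1% over all nucleotides of the region (exact permutation p = 0.2). Shifted by 1 nt so that the last base was left out (chosen with the data in view), they made up 46.6% to 47.2% in WT and 50.2% to 50.7% in the mutant. The same stretch behind ends at A, C and U alone held 46.8% to 47.4% and 50.4% to 51.0%. By position, the base 4 nt before the last was G for 25.1% of the ends in WT and 32.8% in the mutant, and the base 7 nt before it for 26.5% and 32.6% (means over libraries, none overlapping). C at the same places went the other way, from 18.7% in WT to 16.6% in the mutant at 4 nt and from 19.1% to 16.8% at 7 nt. Of the 9 positions of the stretch, C was higher in the mutant only at 1 nt before the last base (19.8% against 16.8%). G was not higher in the mutant at 2 nt before the last base (32.1% against 32.5% in WT, overlapping). Beyond the stretch G was still higher, with 34.5% in the mutant against 31.5% in WT at 9 nt before the last base. At 10 nt before it the values were 34.1% and 30.5%, without overlap at either place. Lack of overlap was common at the places looked at, downstream of the end as well, so it does not single out those named. At 3 nt after the last base, C made up 16.5% in WT and 20.5% in the mutant, and U 28.77% and 24.99%, neither overlapping. G at 4 nt after it overlapped (28.21% in WT and 28.19% in the mutant). RNA further upstream, the 60 nt that end 15 nt before the 3′ end, had a count-weighted minimum free energy of -12.6 ± 0.0589 kcal/mol in WT and -12.8 ± 0.0969 in the mutant as predicted by RNAfold, against -13.2 over all nucleotides (exact permutation p = 0.2). With the 30 nt nearest to that point the difference, mutant minus WT, turned from -0.223 to 0.0751 kcal/mol (exact permutation p = 0.4).

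At the level of single nucleotides, 1635 of the 1698 positions passed a filter on low counts, and 63 did not. Of those 63, 29 were G, 17 C, 9 U and 8 A, and 11 lay in the first 25 nt of 25S. In edgeR's quasi-likelihood test with each library scaled to its total in this region, 602 of the 1635 tested positions rose and 500 fell in the mutant at a Benjamini-Hochberg adjusted p below 0.05. Across the whole 35S gene 36.4% of tested positions rose and 32.5% fell in the same fit, so the shares here, 36.8% and 30.6%, lie near that background. Scaled to the 35S total instead, 782 rose and 301 fell, against 46.3% and 20.9% over the gene. Risen positions without overlap between the libraries of the genotypes numbered 589, and fallen ones 490, out of the 1635 tested. Over the gene they numbered 2079 and 1853 of 5842 (35.6% and 31.7%), shares near those here. Since overlap is rare among positions already called, this adds little to the calls.

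By last base, 355 of 469 tested G positions rose and 10 fell. Over the 35S gene 73.6% of tested G positions rose, against 75.7% here. Falls outnumbered rises at A (222 against 87 of 458), C (125 against 69 of 302) and U (143 against 91 of 406). As shares of the tested positions, 48.5% fell and 19.0% rose at A, 41.4% and 22.8% at C, and 35.2% and 22.4% at U. These lie near the shares over the 35S gene, which were 50.6% and 21.0% at A, 43.5% and 22.1% at C, and 34.7% and 26.6% at U. Median log2 fold changes were 1.58 (G), -0.51 (A), -0.38 (C) and -0.22 (U), beside 0.12 over all tested positions of the region and 0.07 over the gene. Scaled to the 35S total the last 2 values were 0.51 and 0.48, a shift that moves all bases alike. By next base, 111 of 135 G positions followed by G rose (82.2%), 61 of 77 followed by C (79.2%), 107 of 141 followed by A (75.9%) and 76 of 116 followed by U (65.5%), and the differences between these shares were not tested. Among C positions followed by U 58 of 78 fell and 5 rose, and among those followed by G 17 of 83 fell and 30 rose. Calls by pair were not counted over the 35S gene, so these counts are not shown to be particular to the region.

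The difference at G was set against the most similar parts of the gene. The mutant share at G exceeded that of WT by 15.3 percentage points here, by 13.4 in the 3′ part of 25S (27.4% ± 2.07 against 14.0% ± 1.81) and by 14.4 in 18S (22.5% ± 0.713 against 8.10% ± 0.206), each without its last 10 nt. The within-library gap to the 3′ part of 25S differed between the genotypes by 1.89 points (exact permutation p = 0.4), and that to 18S by 0.939 points (exact permutation p = 0.2). The first was 1.03 with counts capped, 1.13 without WT library 2 and 2.85 without WT library 3, and the second 0.595 without mutant library 1. Within the region the G share was higher in both mutant libraries than in every WT library in 17 of 17 windows of 100 nt. It ran from 5.37% to 13.6% over windows in the WT libraries and from 14.7% to 31.9% in the mutant libraries. The G share was not taken by window over the rest of the gene, so this count is not shown to be particular to the region.

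The 10 positions with the largest fold change among those whose libraries did not overlap were all G. With so few counts in WT, they passed the filter on low counts through the mutant libraries, where they are high. G was also the base with few ends in WT, so this list describes the same counts and adds no separate support for the difference at G. At nt 727 the counts were 3, 7 and 7 in WT against 820 and 112 in the mutant, a log2 fold change of 4.71 ± 0.304 (SE, edgeR adjusted p = 3.46e-11). At nt 474 they were 1, 2 and 3 in WT against 445 and 61 in the mutant, and at its neighbour nt 475 they were 4, 4 and 4 in WT against 489 and 70 in the mutant. These positions were close to empty in WT and well filled in the mutant. At nt 203 the counts were 12, 5 and 5 in WT against 1350 and 88 in the mutant, and the mutant shares of 0.293% and 0.114% differed from each other. At nt 206 they were 2, 2 and 1 in WT against 255 and 36 in the mutant, at nt 867 they were 1, 2 and 1 against 181 and 34, and at nt 1417 they were 1, 1 and 2 against 197 and 21. At the remaining 3 positions WT held 1 to 3 counts in all. Their size is therefore given as a ratio of shares with a 95% counting interval, which covers counting error only. For it the counts were pooled over the libraries of a genotype, so mutant library 1 weighs most. Nt 143 had a pooled ratio of 92.3 (16.3 to 3664), nt 639 one of 32.8 (5.68 to 1316) and nt 1447 one of 28.0 (9.42 to 137). The ratios of the mean shares were 80.2, 37.1 and 37.5. The only WT count at nt 639 was in WT library 3 and that at nt 143 in WT library 2.

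The 10 positions that fell most were 5 A, 3 C and 2 U, none of them G. At nt 1563, a C, the counts were 206, 142 and 167 in WT against 116 and 20 in the mutant. The shares of 0.186% ± 0.0211 in WT and 0.0256% ± 5.90e-04 in the mutant gave a log2 fold change of -2.87 ± 0.246 (SE, edgeR adjusted p = 1.46e-09). At nt 191 (U) it was -2.75 ± 0.248 (SE), at nt 1600 (U) -2.74 ± 0.242 and at nt 130 (A) -2.60 ± 0.233. The other 6, nt 1045, 1047, 1049, 1053, 1054 and 1055, stood within 11 nt of each other and changed by -2.72 to -2.48 on the log2 scale.

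Called positions also lay in runs, and the runs that rose differed in base content from those that fell. Runs of adjacent positions called in 1 direction were looked for after the values had been seen, so they are described without a test. There were 24 runs of 5 nt or more that rose, with 206 nt in all, of which 62.1% were G or C and 45.1% G, and 23 of them held a G. There were 20 such runs that fell, with 152 nt, of which 23.7% were G or C and 3.29% G, and 5 of them held a G. Of all nucleotides of the region 29.3% are G and 18.8% are C. Runs were not counted over the rest of the gene, so neither their number nor their base content is shown to be particular to the region. Since G positions rose and others more often fell, base content and direction are linked by the calls themselves. The 3 longest runs in each direction are shown with the run in capitals and 10 nt on each side.
Risen nt 725 to 747, chrXII:463562-463604: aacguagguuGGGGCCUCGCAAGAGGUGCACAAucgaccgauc
Risen nt 234 to 246, chrXII:464063-464095: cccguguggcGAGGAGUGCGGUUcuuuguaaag
Risen nt 853 to 864, chrXII:463445-463476: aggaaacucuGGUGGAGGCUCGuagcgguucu
Fallen nt 1043 to 1062, chrXII:463247-463286: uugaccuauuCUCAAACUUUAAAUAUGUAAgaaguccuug
Fallen, 11 nt from nt 1195, chrXII:463104-463134: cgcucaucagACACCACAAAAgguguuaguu
Fallen nt 114 to 123, chrXII:464186-464215: gcaaaagcucAAAUUUGAAAucugguaccu

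The longest risen run, nt 725 to 747, held 0.245%, 0.225% and 0.216% of the region's counts in the WT libraries against 1.498% and 1.32% in the mutant libraries, 6.17 times as much on average. All 23 of its positions rose, the A, C and U positions among the G positions included. The longest fallen run, nt 1043 to 1062, held 1.11%, 1.14% and 1.51% in WT against 0.265% and 0.381% in the mutant, 0.257 times as much. It holds 6 of the 10 positions that fell most and a single G. The run from nt 234 to 246 went from 0.399% ± 0.0148 in WT to 1.55% ± 0.263 in the mutant and includes nt 240, the highest mutant position by the mean and in mutant library 1 but not in mutant library 2.

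**Figure D4:**
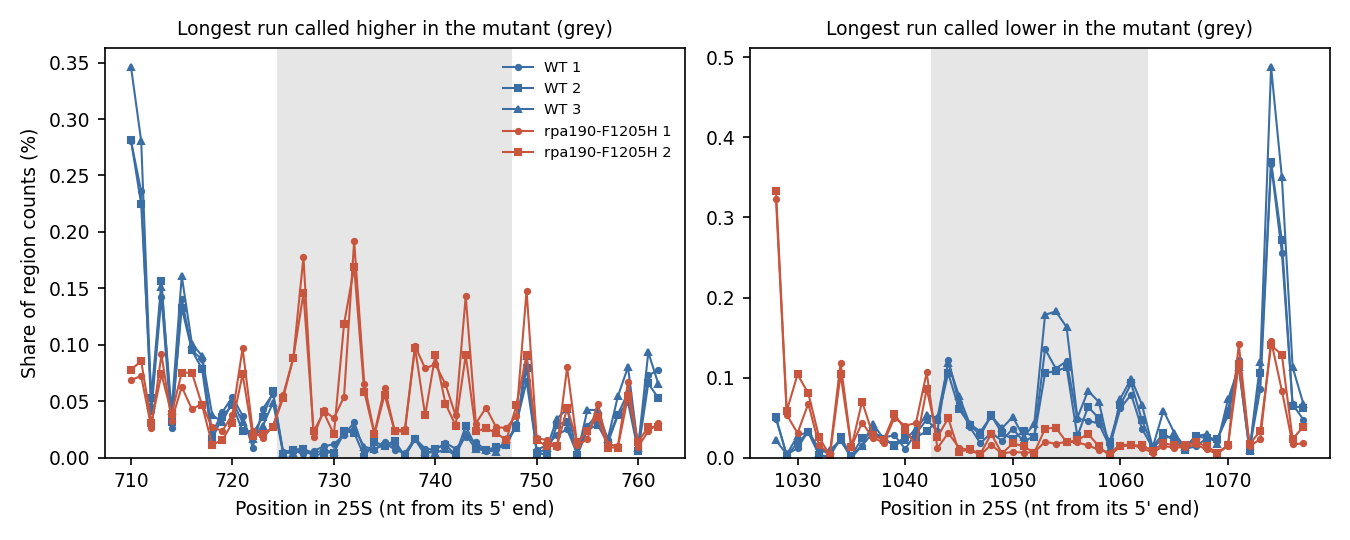
Share of the region's RNA 3′ ends (y axis, percent) at each nucleotide (x axis, nt from the 25S 5′ end) in each library around the longest risen run (left, nt 725 to 747, grey) and the longest fallen run (right, nt 1043 to 1062, grey). The mutant libraries hold 1.498% and 1.32% in the left run and 0.265% and 0.381% in the right one, and the WT libraries 0.216% to 0.245% and 1.11% to 1.51%.

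In windows of 100 nt counted from the 25S 5′ end, 8 of 17 windows rose and 7 fell (edgeR's quasi-likelihood test, adjusted p below 0.05), while 44.9% of the windows of the gene rose and 43.5% fell. Scaled to the 35S total, 10 rose and 1 fell, and the values below shift up by about the same amount in the 6 named windows, to 1.09, 0.96 and 0.82 for the 3 that rose most and to -0.28 for the one that fell most. The windows that rose most were nt 201 to 300, nt 1401 to 1500 and nt 801 to 900. In window nt 201 to 300 the shares were 3.89%, 3.70% and 3.66% in WT against 6.55% and 5.67% in the mutant, a log2 fold change of 0.71 ± 0.0820 (SE, edgeR adjusted p = 3.15e-07). In window nt 1401 to 1500 they were 4.43%, 4.45% and 4.29% in WT against 6.02% and 7.10% in the mutant (0.58 ± 0.0816), and in window nt 801 to 900 they were 4.78%, 4.50% and 4.65% against 6.33% and 6.24% (0.44 ± 0.0738). G makes up 37%, 31% and 32% of the nucleotides of these windows. Among the other windows, nt 1301 to 1400 with 32% G did not pass (-0.03, edgeR adjusted p = 0.733), and the window that ends at nt 700 rose with 26% G (0.34, edgeR adjusted p = 8.21e-04).

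The windows that fell most were nt 901 to 1000, nt 301 to 400 and nt 101 to 200. Window nt 901 to 1000 held the largest WT share, with 9.94%, 10.3% and 9.47%, and 6.15% and 6.30% in the mutant, a log2 fold change of -0.67 ± 0.0727 (SE, edgeR adjusted p = 1.35e-07). Window nt 301 to 400, in which 44% of the nucleotides are A, went from 8.71% ± 0.396 in WT to 6.99% ± 0.925 in the mutant (-0.32 ± 0.0836), and window nt 101 to 200 from 7.14% ± 0.242 to 5.74% ± 0.371 (-0.31 ± 0.0752). Scaled to the 35S total, the last 2 lay at 0.06 and 0.07 and no longer passed (edgeR adjusted p = 0.606 and 0.337). Window nt 301 to 400 also no longer passed without mutant library 1, where it lay at -0.19 (edgeR adjusted p = 0.0652). Windows nt 801 to 900 and nt 901 to 1000 are neighbours that moved in opposite directions, and their sequences show where. In the first the capitals mark positions that rose, 52 of 98 tested, while 15 fell. In the second they mark those that fell, 51 of 100 tested, while 22 rose. Over the gene 36.4% of tested positions rose and 32.5% fell.
Nt 801 to 900, chrXII:463419-463518: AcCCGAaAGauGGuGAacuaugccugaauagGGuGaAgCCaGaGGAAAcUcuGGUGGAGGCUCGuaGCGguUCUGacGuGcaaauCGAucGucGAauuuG
Nt 901 to 1000, chrXII:463319-463418: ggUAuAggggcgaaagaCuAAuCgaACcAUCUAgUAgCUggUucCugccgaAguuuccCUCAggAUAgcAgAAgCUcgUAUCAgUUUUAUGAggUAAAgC

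**Figure D5:**
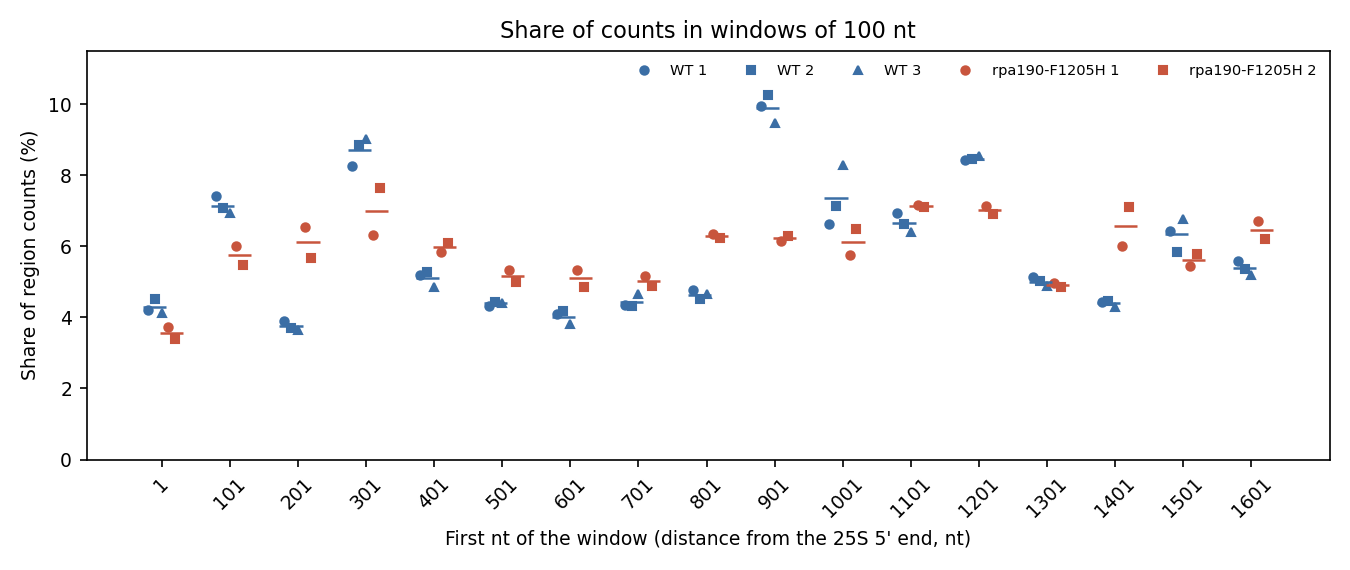
Share of the region's RNA 3′ ends (y axis, percent) in each of 17 windows (x axis, first nt of the window; the last window is 98 nt long), with a point for each library and a line at the mean of each genotype. WT libraries reach 9.47% to 10.3% in window nt 901 to 1000, where the mutant libraries lie at 6.15% and 6.30%, and lie at 3.66% to 3.89% in window nt 201 to 300, where the mutant libraries lie at 6.55% and 5.67%.

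At the start of 25S, just past the spacer ITS2, few ends were found in the first 25 nt in either genotype. The direction of the difference turned within the first 50 nt. Nt 1 to 25 held 0.230%, 0.229% and 0.208% of the region's counts in WT against 0.569% and 0.486% in the mutant, 2.37 times as much. Nt 26 to 50 held 2.11%, 2.28% and 1.95% in WT against 0.967% and 1.02% in the mutant, 0.471 times as much. Over the 50 nt together the shares were 2.33% ± 0.177 and 1.52% ± 0.0204 (exact permutation p = 0.2). The 14 tested positions of the first 25 nt gave 11 that rose and none that fell, and the other 11 were too low to test. At nt 5, for example, the counts were 2, 2 and 1 in WT against 93 and 14 in the mutant. Such positions passed the filter on low counts only through the mutant libraries, so falls could hardly be called among them. The shares over the gene, 36.4% risen and 32.5% fallen, are therefore not a like comparison. The sequence of the first 50 nt is printed below first with the 14 risen and then with the 15 fallen positions in capitals.
Risen, nt 1 to 50, chrXII:464269-464318: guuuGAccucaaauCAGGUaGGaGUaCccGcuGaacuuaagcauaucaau
Fallen, nt 1 to 50, chrXII:464269-464318: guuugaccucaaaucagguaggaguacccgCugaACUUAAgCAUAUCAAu

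For pause sites each library was thinned to the region total of the smallest, 76945 counts. A site had 10 counts or more and stood over 3 SD above the average of its surroundings, 100 nt upstream and downstream. There were 41, 35 and 35 in the WT libraries against 41 and 34 in the mutant libraries (exact permutation p = 1.0). The numbers were close, but few sites were called in every library. In all 3 WT libraries 27 sites were called, 16 at A, 6 at C, 5 at U and none at G. In both mutant libraries 19 were called, 12 at U, 3 at A, 3 at C and 1 at G. Of these, 3 were called in all 5 libraries, which is 11.1% of the WT sites and 15.8% of the mutant sites. Another 6 of the WT sites were called in 1 mutant library, and another 4 of the mutant sites in 1 or 2 WT libraries. The mutant libraries also differed from each other, with 19 sites in common out of 41 and 34. Sites were not counted over the rest of the gene. With a threshold of 2 SD, 13 sites were called in all 5 libraries out of 58 WT and 53 mutant sites. The difference in the number of sites followed the definition, at 10.2 more per mutant library with 2 SD and -9.5 with 50 nt on each side, in place of 0.5.

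The 3 sites called in every library were nt 1248 (C), nt 1098 (A) and nt 1679 (A), and the mutant share was lower at each. At nt 1679 it was 0.489% ± 0.0460 in WT and 0.221% ± 0.0200 in the mutant, a log2 fold change of -1.14 ± 0.207 (SE, edgeR adjusted p = 4.51e-05). At nt 1248 the log2 fold change was -1.13 ± 0.209, and with counts capped at the 99th percentile it no longer passed (-0.33, edgeR adjusted p = 0.0790). The cap cuts the counts of the highest positions of each library. A smaller difference at such positions therefore follows in part from the cap itself and does not show that the difference is weak. At nt 1098 it was -0.91 ± 0.232, and scaled to the 35S total it lay at -0.53 (edgeR adjusted p = 0.05001). Without mutant library 1 it lay at -0.57. Capping also brought nt 1679 to -0.64 and, among the high positions of the mutant, nt 240 to 1.10 and nt 594 to 0.86, each still past the threshold.

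Another 18 sites were called in all WT and no mutant library, and 13 of them were A. The highest were nt 1302 and nt 1303 (both A), nt 981 (U), nt 709 (A) and nt 1074 (U). Their shares were 0.408% to 0.550% in WT and 0.123% to 0.173% in the mutant, and their log2 fold changes ran from -2.19 to -1.51. In both mutant and no WT library 12 sites were called, 9 of them at U, and 5 of these U positions were followed by G. The highest were nt 240, nt 594, nt 1181 and nt 1672, all U, and nt 1243, a G. Nt 240 held 0.127%, 0.133% and 0.125% in WT against 0.625% and 0.353% in the mutant, so that the mutant libraries differed here by more than the whole WT share. Nt 594 held 0.174%, 0.152% and 0.126% in WT against 0.455% and 0.463% in the mutant. At nt 1672 the shares were 0.0575% ± 0.00681 and 0.328% ± 0.0172, a log2 fold change of 2.51 ± 0.214 (SE, edgeR adjusted p = 1.34e-09). These lists were chosen by the same counts, and their fold changes are a description of them.

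A group of high positions within 11 nt, nt 1238 to 1248, held high points of both genotypes. The WT libraries were highest at nt 1238 (C, 0.505% ± 0.0562 against 0.265% ± 0.0753 in the mutant, log2 fold change -0.95, or -0.57 with counts capped or scaled to the 35S total) and nt 1248. The mutant libraries were highest at nt 1239, 1 nt further on (C, 0.378% ± 0.00740 against 0.327% ± 0.0515 in WT), which did not pass the test (log2 fold change 0.21 ± 0.204, edgeR adjusted p = 0.367). Scaled to the 35S total it passed at 0.59 (edgeR adjusted p = 0.0142), and with counts capped it lay at -0.24. At nt 1243 (G) the mutant share was 0.332% ± 0.0253 and the WT share 0.218% ± 0.0264 (log2 fold change 0.62 ± 0.202, edgeR adjusted p = 0.00971). That call at nt 1243 was lost without WT library 1 (0.52, edgeR adjusted p = 0.0808) and with counts capped (0.34, edgeR adjusted p = 0.0930). As the cap cuts the highest counts of each library, the capped values of these high positions follow in part from the cap itself.

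The signal was spread more evenly over the region in the mutant. The Gini coefficient over positions, which is 0 for equal counts and rises toward 1 as counts gather at few positions, was 0.534, 0.529 and 0.533 in the thinned WT libraries and 0.457 and 0.440 in the thinned mutant libraries. The 17 highest positions of a library held 7.71%, 7.69% and 8.05% of its counts in WT against 5.98% and 5.83% in the mutant. The position at which the running sum of counts passed the middle was nt 960, 946 and 965 in WT and nt 886 and 916 in the mutant. Each of these measures gave an exact permutation p of 0.2.

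As a share of the whole gene, the region held 19.0%, 19.1% and 19.8% of the sense 35S counts in WT against 24.8% and 25.5% in the mutant (exact permutation p = 0.2). With all counts capped at the 99th percentile of the region in each library the shares overlapped, at 29.1% to 29.7% in WT and 29.3% to 30.05% in the mutant, a difference of 0.377 in place of 5.87 percentage points (exact permutation p = 0.4). As a share of 25S without its last 10 nt, it held 49.0% ± 0.303 in WT and 55.6% ± 0.166 in the mutant (exact permutation p = 0.2). The other strand of the region held 131, 104 and 96 counts in the WT libraries against 779 and 106 in the mutant libraries. That was 0.120% ± 0.0142 of both strands in WT and 0.153% ± 0.0220 in the mutant (exact permutation p = 0.2), a difference of 0.0335 points that was 0.0179 without mutant library 1.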

How the data were processed

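Each deposited file gives raw counts, the number of RNA 3′ ends at every nucleotide of 1 rDNA repeat on either strand. The unit was judged from the files, whole numbers with different library totals. Per the submitters' processing notes the authors used Trim Galore 0.4.1, SAMtools 1.3.1, bcl2fastq 2.18.0.012 and BWA 0.6. Settings, genome build, handling of reads shared by the repeats, and the removal of duplicates were not given in the sources used here. Repeats are nearly identical and are measured as 1, and reads without identifiers are not independent molecules.

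Counts at all sense positions of the 35S gene were tested together with edgeR 4.0.16 (quasi-likelihood test, filterByExpr, library size the sense total of the region, no block) in R 4.3.3, with Benjamini-Hochberg adjustment over all tested positions and a threshold of 0.05. Log2 fold changes are mutant over WT, and the SE is the size of the change divided by the square root of F. Windows of 100 nt were tested in the same way. Shares and other measures were tested across libraries by exact two-sided permutation in Python 3.11.15, and RNA was folded with RNAfold 2.7.2. Thinning drew counts without replacement. Tests were checked on simulated data.

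Named positions were the 5 of highest mean share per genotype, the 10 highest and 10 lowest log2 fold changes past the threshold without overlap between genotypes, and the 5 highest pause sites of each class, and named windows were the 3 highest and 3 lowest. Members, lists and tests were chosen with earlier results of these data known. Alternatives were DESeq2 1.42.0, TMM and 35S scaling, no filter, a cap at the 99th percentile, a replicate block, the region alone, other window and pause definitions, and each library left out.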

Additional observations from a re-analysis of the deposited data

How the results depend on the processing

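Of the calls at single positions, 1079 were made with the replicate number as a block (598 higher, 481 lower) against 1102 without it, and 12 windows in place of 15 (7 higher, 5 lower). The numbers are shared only as names, with no label that pairs the libraries, and with 2 pairs the pairing was not decided from the data. With each library left out, position calls ran from 904 to 1157 (521 to 631 higher, 383 to 526 lower), and window calls from 10 to 14 (6 to 8 higher, 4 to 6 lower). No position called in the region was called in the opposite direction under any of the 13 alternatives. Scaled to the 35S total, 301 positions were lower, 1 window was lower, and windows nt 301 to 400 and nt 101 to 200 lay at 0.0635 and 0.0690. With TMM factors 5 windows were higher. The median log2 fold change over the gene was 0.07 as reported and 0.48 scaled to the 35S total. Windows of 50 nt gave 24 calls (13 higher, 11 lower) and of 200 nt 7 (4 higher, 3 lower), since their numbers differ. The difference in pause sites, 0.5 per library, was -2.17 with counts capped, -0.833 in another random draw chosen after the data were seen, -9.5 with 50 nt on each side, and -3 to 4 with a library left out. The fold energy turned to 0.0751 with 30 nt and the first 50 nt share to 0.305 with 25 nt. At nt 1239, high enough in the mutant to be cut by the cap, the log2 fold change was -0.24 with counts capped. With a library left out, next base C ran from -0.239 to 1.11 percentage points, U followed by G from -0.437 to 1.94 and U followed by A from -0.445 to 0.0603. The cause of these moves was not tested. Depth limits the 63 positions too low to test, of which 29 were G.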
